A study of Mus musculus with 15 samples.

Results

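The 10 transcripts described here belong to the Prader-Willi and Angelman domain of mouse chromosome 7, and were taken by name from an RNA-seq table of 23235 genes in adult cortex. *Ipw*, *Snrpn*, *Snurf*, *Ndn*, *Magel2*, *Mkrn3* and *Peg12* are expressed from the paternal chromosome, *Ube3a* is expressed from the maternal chromosome in neurons, *Atp10a* is listed as maternal although its imprinting in the mouse is not settled, and *Herc2* at the edge of the domain is expressed from both. The table held WT C57BL/6J mice and *Snord116del* (+/-) mice of the strain B6(Cg)-Snord116tm1.1Uta/J. The *Snord116del* mice carried the deletion on the paternal chromosome and came from heterozygous fathers and WT mothers. The authors describe the WT and *Snord116del* mice used for RNA-seq as littermates. All were adult males, with 3 WT and 2 *Snord116del* mice at Zt +6, in the light phase, and 2 and 2 at Zt +16, in the dark phase, where Zt is zeitgeber time in hours after lights on. The files gave 1 FPKM value (fragments per kilobase of transcript, relative to all fragments mapped) per group and none per mouse, so no value below has an error and no difference was tested.

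Genomic imprinting silences 1 parental copy of a gene by marks set in the germ line. In this domain an imprinting centre at the start of *Snurf* and *Snrpn* is methylated on the maternal chromosome, and the paternal copy starts a very long transcript that carries the *Snord116* and *Snord115* small nucleolar RNAs, *Ipw* and, in neurons, a stretch antisense to *Ube3a* that keeps the paternal *Ube3a* silent. Loss of the paternal genes causes Prader-Willi syndrome, and loss of maternal *UBE3A* causes Angelman syndrome.

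On the mm9 assembly (NCBIM37), GENCODE placed 8 of the 10 genes by name. From the centromere side, *Herc2* ran from 63305525 to 63487164 on the plus strand of chromosome 7, *Atp10a* from 65913572 to 66084796, *Ube3a* from 66484122 to 66562097, and *Snrpn* from 67127388 to 67285105 on the minus strand. *Ndn* (69493163 to 69494814) and *Magel2* (69521865 to 69526526) lay on the plus strand, and *Mkrn3* (69562479 to 69565039) and *Peg12* (69606757 to 69609396) on the minus strand. These last 4 genes were annotated with a single exon each. The 27 annotated *Snord116* copies spanned 66928831 to 67068008 and the 137 *Snord115* copies 66597596 to 66874465. *Ipw* and *Snurf* were placed through the RefSeq start sites, whose sequence had 1 exact match on the chromosome. *Ipw* started at 66934248 on the minus strand, inside the *Snord116* span, with 24 copies before it and 3 after it in the direction of transcription. *Snurf* started at 67150085, a start it shares with 1 of the 4 RefSeq starts of *Snrpn*.

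The 250 bases before the start are shown for the 4 transcripts that the results turn on, read 5′ to 3′ on the strand of the gene, with CpG dinucleotides in capitals. Methylation of these sites was not measured. The bases are those of RefSeq promoters (GRCm38.p6), located here on NCBIM37 by exact match, at chr7:67150086-67150335 for *Snurf*, chr7:66934249-66934498 for *Ipw*, chr7:69492913-69493162 for *Ndn* and chr7:66483870-66484119 for *Ube3a*.
Snurf and Snrpn: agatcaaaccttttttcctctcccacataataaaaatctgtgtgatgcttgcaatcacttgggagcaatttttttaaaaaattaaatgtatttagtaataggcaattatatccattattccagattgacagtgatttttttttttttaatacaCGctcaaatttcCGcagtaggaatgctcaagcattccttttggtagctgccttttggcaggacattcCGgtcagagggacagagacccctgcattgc
Ipw: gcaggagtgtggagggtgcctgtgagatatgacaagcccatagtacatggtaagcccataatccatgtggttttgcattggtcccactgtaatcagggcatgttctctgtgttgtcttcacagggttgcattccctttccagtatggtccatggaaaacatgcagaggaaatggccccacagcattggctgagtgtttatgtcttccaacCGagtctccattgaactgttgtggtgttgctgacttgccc
Ndn: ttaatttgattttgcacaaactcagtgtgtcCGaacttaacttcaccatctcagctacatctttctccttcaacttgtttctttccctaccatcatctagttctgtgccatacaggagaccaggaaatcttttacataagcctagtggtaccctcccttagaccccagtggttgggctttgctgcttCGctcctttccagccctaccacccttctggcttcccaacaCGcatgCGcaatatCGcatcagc
Ube3a: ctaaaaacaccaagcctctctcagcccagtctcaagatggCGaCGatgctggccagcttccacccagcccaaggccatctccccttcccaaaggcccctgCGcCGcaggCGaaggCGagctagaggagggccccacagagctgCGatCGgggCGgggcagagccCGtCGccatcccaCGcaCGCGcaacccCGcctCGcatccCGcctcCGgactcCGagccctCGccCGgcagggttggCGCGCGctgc

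These 4 windows differed in CpG content. The shared *Snurf* and *Snrpn* window held 3 CpG, the *Ipw* window 1, the *Ndn* window 5 and the *Ube3a* window 24, beside a median of 6 (middle 50%, 2 to 16) over 32817 RefSeq promoter windows of the same 250 bases. The upstream windows of *Herc2* held 20 and 35 CpG and that of *Atp10a* 14, and those of *Magel2*, *Mkrn3* and *Peg12* held 7, 10 and 8. Each window of a paternal gene therefore held fewer CpG than each window of *Ube3a*, *Atp10a* and *Herc2*. The windows end at the start, and CpG downstream of it were not counted, so they do not describe the whole imprinting centre. Of 3 motifs searched on both strands, CACGTG (the E-box) was in none of the members' windows and in 6.02% of all windows. GCGCATGC, the core of the NRF1 motif, was in the *Ndn* window and in 2.25% of all windows, and AAGATGGC, the core of the YY1 motif, was in the *Ube3a* window and in 1.56%.

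*Snrpn*, which encodes the SmN spliceosomal protein, had the highest level of the 10 genes in all 4 groups, with 65.3 FPKM in WT and 105 with the deletion at Zt +6, and 90.0 and then 149 FPKM at Zt +16. In WT at Zt +6 it was followed by *Ipw* (21.6 FPKM), *Snurf* (18.9), *Ndn* (12.7), *Herc2* (5.12) and *Ube3a* (1.55). *Atp10a*, *Magel2*, *Mkrn3* and *Peg12* had means under 1 FPKM over the 4 groups, and were between 0.178 and 0.429 FPKM in WT at Zt +6. No spread over mice was given, so neighbours in this order cannot be told apart by their error. At Zt +16 in WT, *Ndn* (19.3 FPKM) and *Snurf* (9.68) stood above *Ipw* (3.17).

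**Figure D1:**
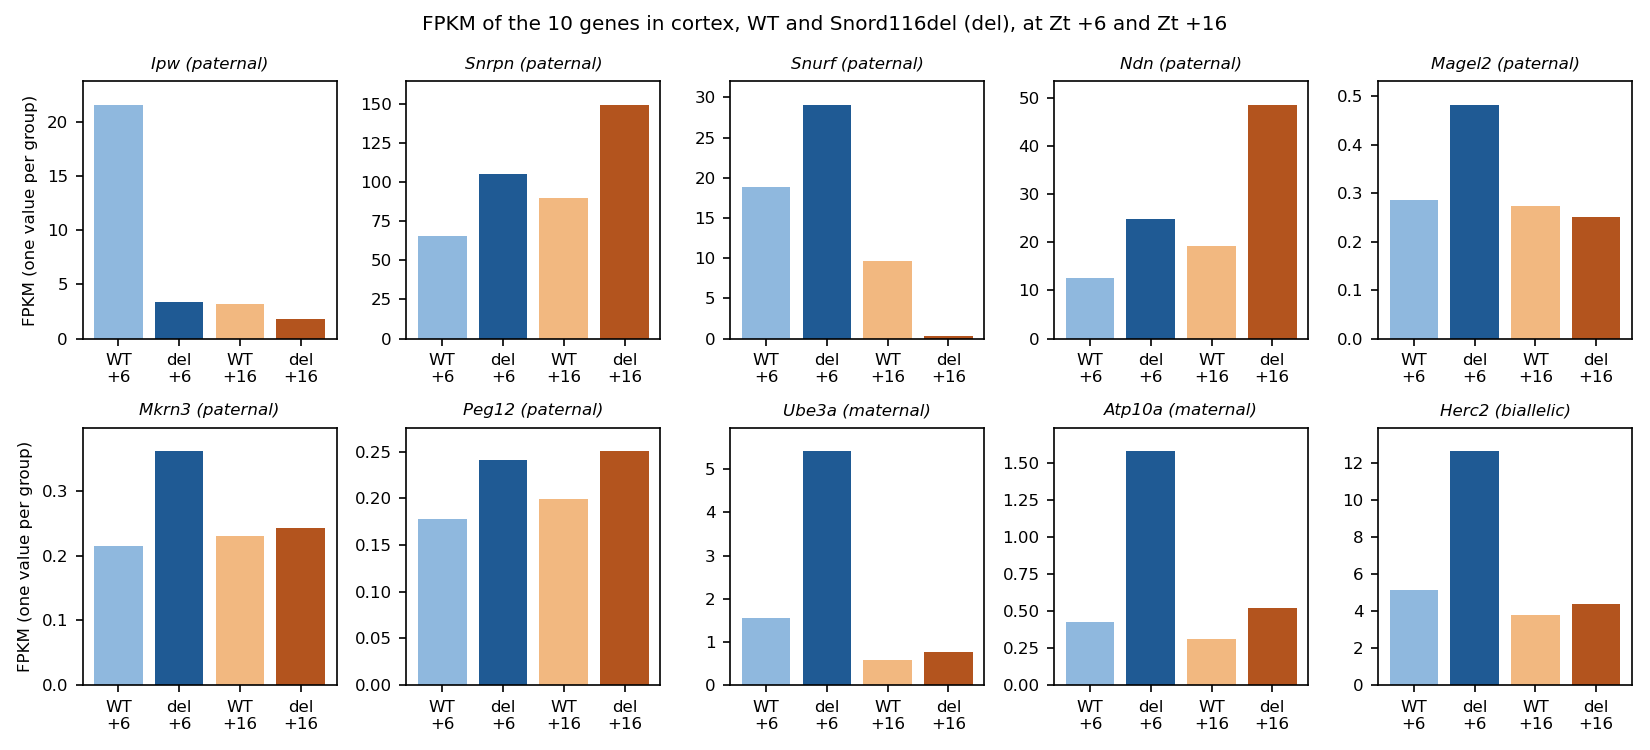
Bars give the FPKM of each of the 10 genes in cortex, 1 value per group with no error, on a separate linear axis from 0 for each gene; del is *Snord116del*, and +6 and +16 are Zt hours. *Ipw* was highest in WT at Zt +6, *Ndn* and *Snrpn* were highest in *Snord116del* at Zt +16, and *Ube3a*, *Atp10a* and *Herc2* were highest in *Snord116del* at Zt +6.

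Changes below are log2 ratios of FPKM + 1, which understate the change of genes under a few FPKM. The fold rule counted a gene as higher or lower where FPKM + 1 differed 1.5-fold or more and at least 1 of the groups reached 1 FPKM. It was applied to the 10297 genes whose mean over the 4 groups was 1 FPKM or more. Of the 10 members, 6 had such a mean: *Ipw*, *Snrpn*, *Snurf*, *Ndn*, *Ube3a* and *Herc2*. *Ube3a* had it only through *Snord116del* at Zt +6 (5.41 FPKM), and was at 1.55, 0.582 and 0.761 FPKM in the other groups. Its calls in comparisons with that group are therefore not independent of the filter. The 4 comparisons share groups, and each is given with its own values.

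The whole table moved between groups. At Zt +6, 5073 genes were higher in *Snord116del* and 785 lower, with a median change of 0.57, and once the groups were scaled to 1 median these counts were 1548 and 2516. At Zt +16, 1959 were higher and 21 lower, with a median of 0.35, and 126 and 53 under the same scaling, or 32 and 102 with every group scaled to the same total. The change at Zt +6 also moved with transcript length, from a median of -0.07 over 2725 genes of under 2000 bases to 1.34 over 489 genes of at least 8000 bases. Both *Snord116del* mice and 1 of the 3 WT mice at Zt +6 were labelled with an earlier version of the table than the other 6 mice. Whatever separated these versions cannot be told apart from genotype at Zt +6, or from time in *Snord116del*. In WT it is mixed with time in part. *Snord116* itself and *Snord64* were listed at 0 in all 4 groups, so the deleted gene did not check the labels.

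At Zt +6, 5 of the 6 members tested were higher in *Snord116del* and 1 was lower, beside 49.3% and 7.62% of all tested genes. *Ube3a*, 1 of the 5, passed the filter on the mean only through its value in *Snord116del* at Zt +6. *Ipw* went from 21.6 to 3.40 FPKM (log2 change -2.36). *Ube3a*, a ubiquitin ligase, went from 1.55 to 5.41 FPKM (1.33), *Herc2*, another large ubiquitin ligase, from 5.12 to 12.7 (1.16), and *Ndn* from 12.7 to 24.9 (0.92). *Snrpn* (0.68) and *Snurf* (0.60) changed by little more than the median gene. The median change of the 6 members was 0.80. With groups at the same median, 1 member was higher (*Ube3a*, 0.71) and 1 lower (*Ipw*, -3.04), and *Snrpn* and *Snurf* changed sign to -0.14 and -0.20.

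At Zt +16, 2 of the 6 were higher and 1 was lower, beside 19.0% and 0.204% of all tested genes. *Ndn* went from 19.3 FPKM in WT to 48.6 in *Snord116del* (log2 change 1.29) and *Snrpn* from 90.0 to 149 (0.72). *Snurf* went from 9.68 to 0.255 FPKM (-3.09). The median change of the 6 members was 0.16. With groups at the same median, *Ndn* was higher (0.84), and *Snurf* (-3.50) and *Ipw* (-0.93) were lower.

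**Figure D2:**
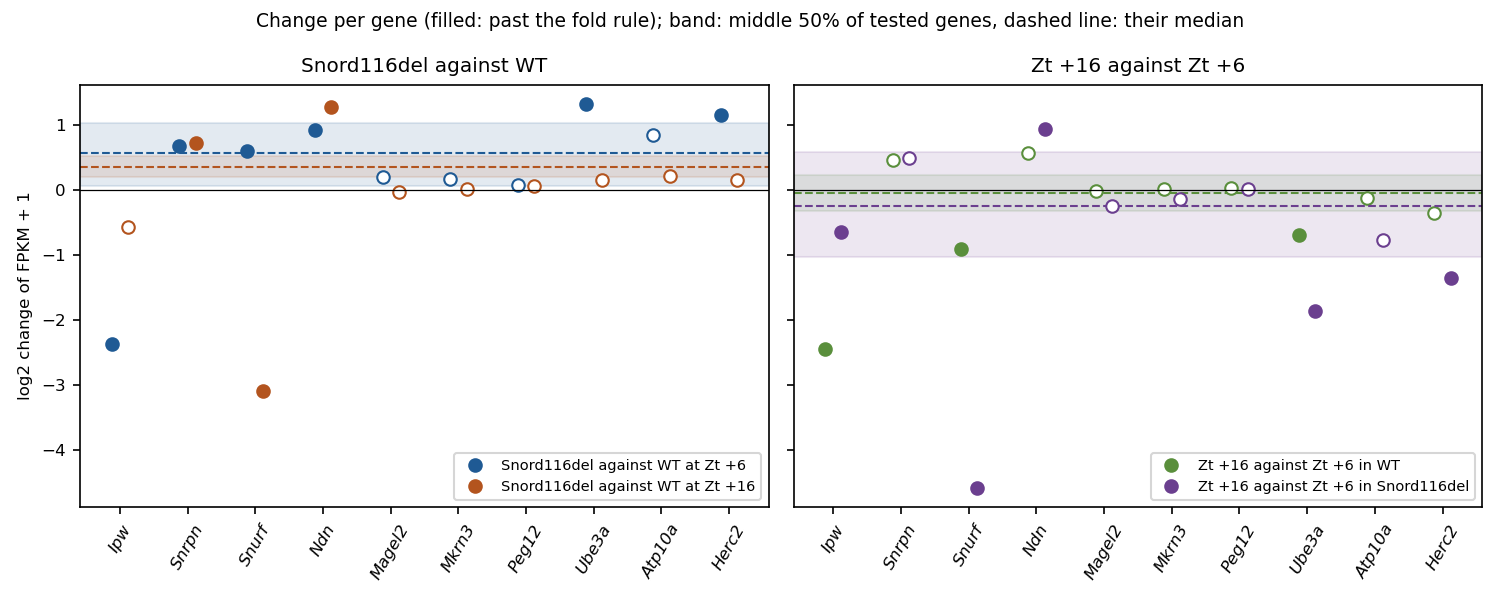
Points give the log2 change of FPKM + 1 for each gene, with *Snord116del* against WT at both times on the left and Zt +16 against Zt +6 in both genotypes on the right. Filled points are past the fold rule, and bands and dashed lines give the middle 50% and the median of the 10297 tested genes in the same colour; *Ipw* at Zt +6 and *Snurf* at Zt +16 sit far below their bands and *Ndn* at Zt +16 above its band.

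*Ipw* is a spliced non-coding RNA of the long paternal transcript. In light-phase cortex it was at 21.6 FPKM in WT against 3.40 with the deletion, and in dark-phase cortex at 3.17 against 1.82. WT at Zt +6 was the one group that stood high, and the other 3 lay within 1.82 and 3.40 FPKM. The change at Zt +6 was lower than that of all but 0.194% of tested genes, and across 5 scalings it ran from -3.21 to -2.36. At Zt +16 the change was -0.57 with FPKM + 1, just short of the fold rule, and it passed the rule with a pseudocount of 0.1 FPKM (-0.77) and with groups scaled to the same median (-0.93), the same total (-0.96) or the same quantiles (-0.81). Between the times *Ipw* fell in WT by 2.44 on the log2 scale.

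Whether the deletion of *Snord116* includes the start of *Ipw* is not given in the sources used here, and 2 more names in the table belong to the same host transcript. RefSeq lists *D7Ertd715e* and *C230091D08Rik* as synonyms of *Snhg14*, the long host of the small nucleolar RNAs, and both were picked out after their values were seen. At Zt +6 *D7Ertd715e* was at 1.13 FPKM in WT against 0.0470 in *Snord116del*, and at Zt +16 at 0.288 against 0.0278. At each time the *Snord116del* value was below that of WT, as for *Ipw*, but the mean was under 1 FPKM and the rule was not applied. *C230091D08Rik* went from 1.46 to 8.55 FPKM at Zt +6 and from 0.106 to 0.171 at Zt +16. This second piece was 10.5 kb past the end of *Ube3a* on the opposite strand, at 66572581 to 66572689 of chromosome 7, and was higher in *Snord116del* at Zt +6 (log2 change 1.96). GENCODE gives it a transcript of only 54 bases, for which FPKM is coarse. At Zt +6 the 2 names of 1 host therefore had differences of opposite sign.

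*Snurf* and *Snrpn* are translated from 1 bicistronic transcript, and reads of their shared exons cannot be assigned to either. *Snurf*, the upstream reading frame, had 18.9 FPKM in WT against 29.1 with the deletion at Zt +6, and 9.68 against 0.255 at Zt +16. *Snord116del* at Zt +16 stood apart, below all 3 other groups. As a share of the sum of both genes, *Snurf* made up 22.4% in WT and 21.6% with the deletion at Zt +6, and 9.71% and 0.170% at Zt +16. The sum itself went from 84.2 FPKM in WT to 134 in *Snord116del* at Zt +6 and from 99.7 to 150 at Zt +16. Its log2 change at Zt +16 was 0.58, against -3.09 for *Snurf* and 0.72 for *Snrpn* taken separately, and fell just short of the fold rule. The sum was added after the values were seen.

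*Snrpb* encodes SmB, the close relative of SmN used in most tissues, and near-identical stretches make the split of reads between both genes uncertain. *Snrpb* went from 37.3 FPKM in WT to 15.8 with the deletion at Zt +6, and from 60.2 to 90.3 at Zt +16. The ratio of *Snrpn* to *Snrpb* was therefore 1.75 against 6.66 at Zt +6 (WT first), and 1.49 against 1.65 at Zt +16. *Snord116del* at Zt +6 was the one group in which the ratio stood high. The change of *Snrpn* depended on the scaling at both times. At Zt +16 it was 0.26 with groups at the same median and 0.07 with the same totals, and at Zt +6 it was 0.91 with the same quantiles.

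*Ndn* encodes necdin, a MAGE family protein of postmitotic neurons. It went from 12.7 FPKM in WT to 24.9 with the deletion at Zt +6, and from 19.3 to 48.6 at Zt +16. Both *Snord116del* values were above both WT values. At Zt +6 the change of 0.92 was larger than that of 69.1% of tested genes, and it was 0.13 with groups at the same median. That change was past the fold rule with a pseudocount of 0.1 FPKM (0.97) and with the same totals (0.925). So it was with the same quantiles (0.64) and with the length trend removed (0.81). At Zt +16 the change of 1.29 was larger than that of 99.8% of tested genes, and it stayed past the fold rule under all 5 other scalings, from 0.64 with the same totals to 1.33 with a pseudocount of 0.1 FPKM.

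Genes of hypothalamic peptides were high in the same group. *Oxt* (oxytocin) was at 1.72, 1.18, 1.91 and 107 FPKM, for WT and then the deletion at Zt +6 followed by the same order at Zt +16, and *Avp* (vasopressin) at 4.90, 1.56, 2.60 and 76.6. At Zt +16 *Pomc* went from 2.31 to 5.34 FPKM. *Hcrt* was at 0.641 and 0.980 there, and *Pmch* and *Agrp* were under 0.1 FPKM in all 4 groups. The summed level of these 6 markers was between 5.32 and 8.97 FPKM in 3 groups and 190 in *Snord116del* at Zt +16, where all 3 tested markers were higher. *Magel2*, the other domain gene known for its hypothalamic role, had 0.273 FPKM in WT at Zt +16 against 0.251 with the deletion. The part of such RNA in the level of *Ndn* was not tested.

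**Figure D3:**
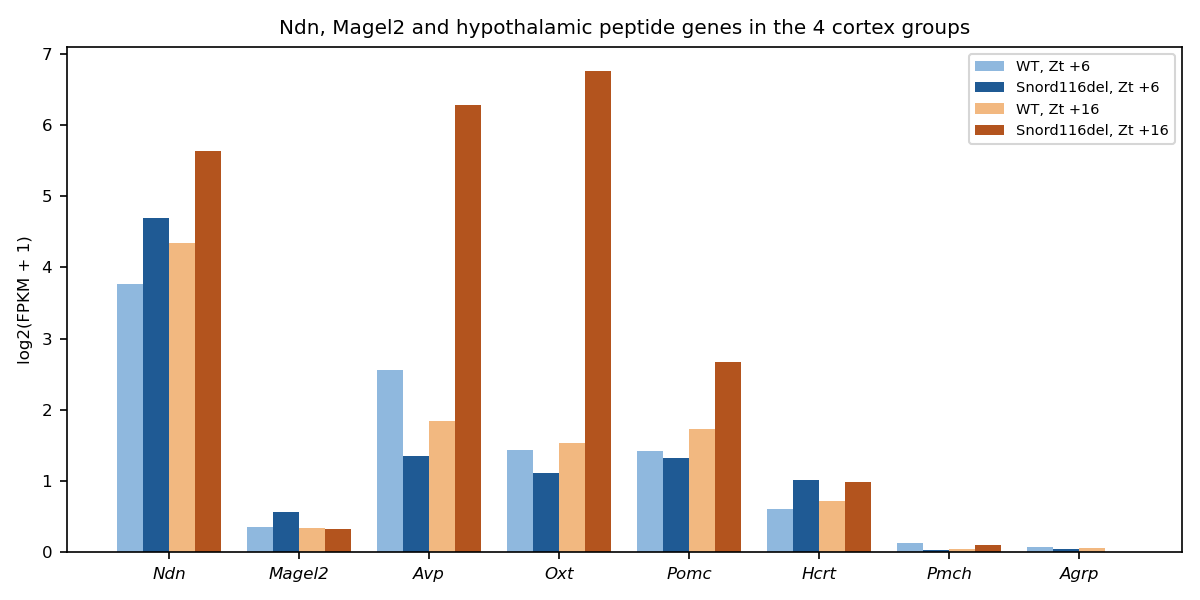
Bars give log2(FPKM + 1) of *Ndn*, *Magel2* and 6 hypothalamic peptide genes in the 4 cortex groups, 1 value per group. *Avp* and *Oxt* reach 76.6 and 107 FPKM in *Snord116del* at Zt +16 alone, the group in which *Ndn* is highest, while *Magel2* does not stand out there.

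*Magel2*, *Mkrn3* and *Peg12* lie beside *Ndn* and are also paternal. They encode a MAGE protein, a RING finger ubiquitin ligase and a GSK3-binding protein. At Zt +6 *Magel2* went from 0.285 to 0.482 FPKM, *Mkrn3* from 0.215 to 0.361 and *Peg12* from 0.178 to 0.241. At Zt +16 all 3 genes were between 0.199 and 0.273 FPKM in both genotypes. Without reads or replicates, differences of this size at this level cannot be read, and none of the 3 genes passed the fold rule in any of the 4 comparisons, also without the filter on the mean.

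*Ube3a* went from 1.55 to 5.41 FPKM at Zt +6 and from 0.582 to 0.761 FPKM at Zt +16. *Snord116del* at Zt +6 was the highest group, and WT at Zt +6 was also above both Zt +16 groups. The change at Zt +6 was 1.33, larger than that of 88.6% of tested genes, and at Zt +16 it was 0.15. The difference between these changes, -1.18, was larger than the median difference of tested genes (-0.22) and was not tested. At Zt +6 the change was 0.71 with groups at the same median and 0.38 without the length trend, the latter short of the fold rule. The transcript of *Ube3a* is 5097 bases long, and the median change of 2872 genes of 4000 to 8000 bases was 0.99. Whether strand was used in counting is not given in the sources used here, so *Ube3a* and its antisense RNA cannot be told apart in these values.

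*Atp10a*, a lipid flippase, and *Herc2* flank *Ube3a* on the centromere side. *Atp10a* went from 0.429 to 1.58 FPKM at Zt +6 and from 0.310 to 0.519 at Zt +16. Its mean was under 1 FPKM, and without that filter its change of 0.85 at Zt +6 passed the fold rule. *Herc2* went from 5.12 to 12.7 FPKM at Zt +6 and from 3.80 to 4.36 at Zt +16. The *Herc2* transcript of 15342 bases was the longest of the 8 placed members, and its change at Zt +6 went from 1.16 to -0.32 once the length trend was removed. *Ube3a*, *Atp10a* and *Herc2* were each highest in *Snord116del* at Zt +6 and lowest in WT at Zt +16.

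Cell type markers were also higher in *Snord116del* at Zt +6, a call made for 49.3% of all tested genes. All 4 astrocyte markers (summed level 30.0 FPKM in WT and 90.1 in *Snord116del*) and all 3 endothelial markers (3.53 and 12.0) were higher, with 3 of 4 microglial markers (17.6 and 38.2), 2 of 4 oligodendrocyte markers (383 and 614) and 3 of 5 neuronal markers (672 and 931). Of the 3 endothelial markers, 2 passed the filter on the mean only through *Snord116del* at Zt +6, so their calls are not independent of it. *Ube3a* is imprinted in neurons and expressed from both copies in glia. The part of cell composition in its change was not tested, and in bulk tissue a change in the number of cells of a type and one in RNA per cell cannot be told apart.

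**Figure D4:**
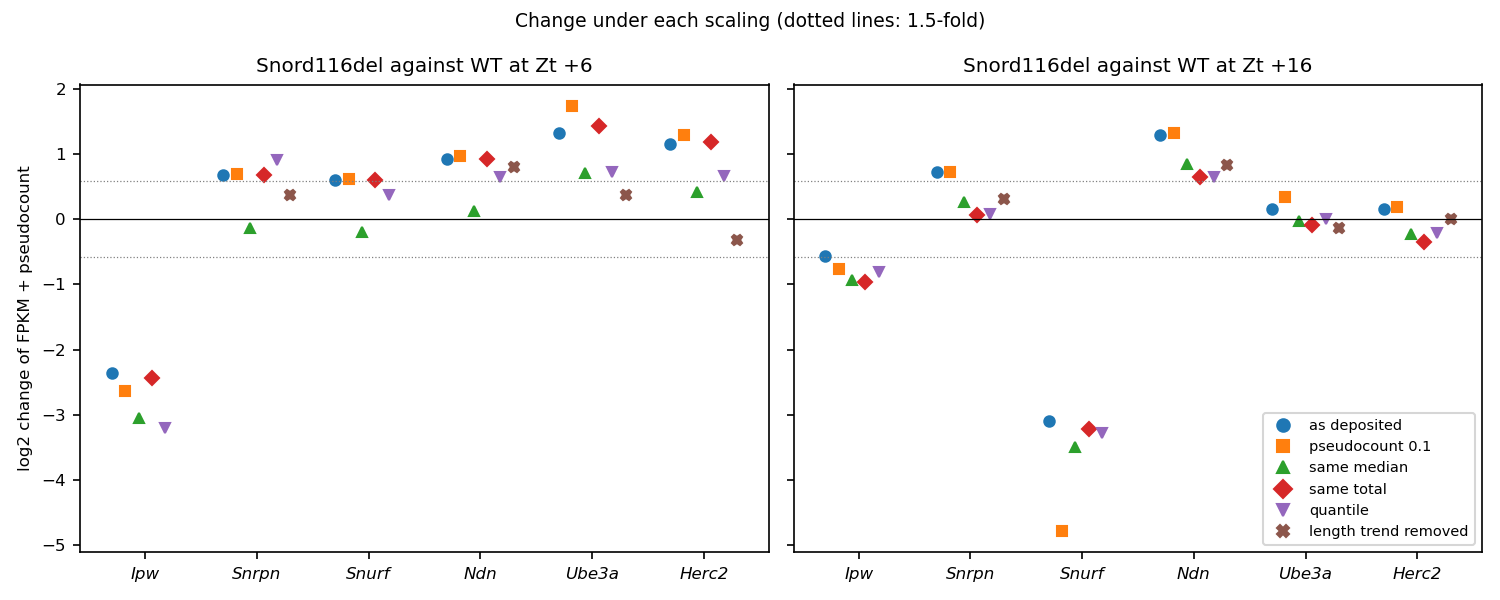
Points give the log2 change of *Snord116del* against WT for the 6 tested members at both times, under 6 ways of scaling (*Ipw* and *Snurf* have no annotated length and so 5); dotted lines mark 1.5-fold. *Ipw* at Zt +6, *Snurf* at Zt +16 and *Ndn* at Zt +16 stay beyond the dotted lines under each, whereas *Snrpn*, *Snurf* and *Herc2* at Zt +6 cross 0.

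Between the times in WT, none of the 6 tested members was higher at Zt +16 and 3 were lower, beside 5.71% and 10.3% of all tested genes. *Ipw* fell by 2.44 on the log2 scale, *Snurf* by 0.90 and *Ube3a* by 0.69. *Ndn* (0.57), *Snrpn* (0.46) and *Herc2* (-0.35) did not pass the rule. With the groups at the same median, *Ndn* (0.70) and *Snrpn* (0.59) passed it as well, and over all genes 1107 were then higher and 976 lower in place of 588 and 1057. With the same totals *Ndn* was at 0.16 and *Snrpn* at 0.02, *Herc2* passed the rule (-0.73), and over all genes 52 were higher and 2984 lower.

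In *Snord116del*, 1 of the 6 was higher at Zt +16 and 4 were lower, beside 25.0% and 39.1% of all tested genes. *Ube3a*, 1 of the 4, passed the filter on the mean only through its Zt +6 value in *Snord116del*. Time and the version of the table cannot be told apart in this comparison. *Ndn* was higher (0.94), whereas *Snurf* (-4.58), *Ube3a* (-1.86), *Herc2* (-1.35) and *Ipw* (-0.64) were lower. The median change of 2872 genes of 4000 to 8000 bases, the length class of *Ube3a*, was -0.95. That of 489 genes of at least 8000 bases, the class of *Herc2*, was -1.67. With the length trend removed the change of *Ube3a* was -0.98 and that of *Herc2* was 0.67. *Ndn* fell short of the rule with the length trend removed (0.43) and with the same quantiles (0.42), and was -0.12 with the same totals. *Ipw* fell short of it with the same median (-0.28) and the same quantiles (-0.06). *Snrpn*, at 0.50 and not past the rule, was 0.99 with the same median but -0.59 with the same totals and -0.70 with the same quantiles. Over all genes 2571 were higher and 4022 lower, or 3603 and 2733 with the groups at the same median and 856 and 6857 with the same totals.

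The other genes of the domain were described from a list of 11 names, of which 10 were in the table and 7 were tested. All 7 were higher in *Snord116del* at Zt +6, with a median change of 1.19, beside 49.3% of all tested genes, and none of the 7 passed the rule at Zt +16 (median 0.31), when 19.0% of all tested genes were higher. Of the 7, 1 reached the mean of 1 FPKM only through *Snord116del* at Zt +6, so its call there is not independent of the filter. At Zt +6, 3 of the 7 were higher and none lower with groups at the same median, when 1548 of all 10297 tested genes were higher. With the length trend removed 2 of the 7 were higher and none lower, when 1282 of 10165 genes were higher. *Gabra5*, a GABA-A receptor subunit, went from 8.26 to 13.1 FPKM at Zt +6. *Nipa1*, a magnesium transporter outside the imprinted part, went from 2.72 to 9.29 FPKM, and *Cyfip1*, a regulator of actin and translation, from 2.41 to 6.75. *Oca2*, a pigment gene, was at 0.1 FPKM or less in all groups. By the RefSeq order of genes from *Tubgcp5* to *Peg12*, a span set after the data were seen, 37 table genes lay in the domain and 13 of them were listed at 0 throughout. The 14 tested there were the 6 tested members, the same 7 list genes and *C230091D08Rik*, so they are not a separate count. Of them, 13 were higher at Zt +6 and *Ipw* was the 1 lower (49.3% and 7.62% of all tested genes). Among the 13, *Ube3a*, *C230091D08Rik* and that list gene passed the filter only through *Snord116del* at Zt +6. With groups at the same median 5 were higher and 1 lower. With the length trend removed 3 of 11 were higher and none lower.

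The paralogs of the members give values for genes of like function elsewhere in the genome. Of 17, 14 were tested. At Zt +6, 7 were higher and 1, *Snrpb*, was lower, beside 49.3% and 7.62% of all tested genes. Their median change was 0.51, and that of all tested genes was 0.57. With groups at the same median 2 were higher and 3 lower, when 1548 and 2516 of all 10297 tested genes were. *Herc1*, with a transcript of 15153 bases, went from 3.17 to 12.6 FPKM, more than *Herc2* did, and *Mkrn1* from 1.81 to 5.45. *Ube3b* was at 8.98 and 8.68 FPKM at Zt +6 and *Ube3c* at 4.39 and 8.57. The MAGE gene *Maged1* was at 51.3 and 67.0 FPKM at Zt +6 and at 52.8 and 64.5 at Zt +16, where *Ndn* differed by more.

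Genes with the most similar pattern over the 4 groups were found by the distance between log2(FPKM + 1) values centred on their mean. For *Ube3a* these were *Zhx3* (distance 0.0117), *Fam13c* (0.0237) and *Inpp5b* (0.0278), and for *Snrpn* they were *Pon2* (0.0283), *Mink1* (0.0613) and *Trmt1* (0.0784). The nearest genes to *Ndn* were farther away, at 0.390 for *Rgs9*, 0.417 for *Scrg1* and 0.441 for *Sparc*. Of these 4 members, *Ipw* had the farthest neighbours, at 0.898 for *Mir1188*, 1.67 for *Fos* and 1.70 for *Mir214*, and both miRNA genes were listed at 0 in 3 of the groups. With 4 values per gene, these distances describe the table and carry no test.

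ChIRP-seq, which pulls down chromatin with oligos against an RNA, was made from adult brain of the same strains with oligos for *116HG*, the spliced host RNA of *Snord116*, or with the NSC control oligos. The 2 WT *116HG* libraries gave 78033 and 11145 peaks, and the 3 control lists (*116HG* oligos in *Snord116del*, NSC oligos in both genotypes) had 8346 together. Of the 8 placed members, *Herc2*, *Ube3a*, *Snrpn* and *Ndn* had a replicate 1 peak within 2 kb, beside 59.4% of all 21853 placed genes. In replicate 2, *Snrpn* and *Peg12* had 1 peak each, beside 13.9% of genes. No placed member had a peak in any control list, beside 10.8% of genes. *Snrpn* and *Ndn* had a peak that counted as replicated within 10 kb, beside 10.9% of genes.

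The replicate 1 peaks followed the exons. *Herc2* had 47 peaks, 45 of them centred on an exon, and exons make up 8.50% of its span. *Snrpn* had 19 peaks, of which 11 were exonic, with exons at 1.39% of the span, and the highest had a fold over input of 482. The *Ndn* peak, from 69493183 to 69494825 with a fold of 236, covered nearly the whole of its single exon. *Ube3a* differed in having 16 exonic peaks of 48, with folds of 21.4 to 126. In the whole replicate 1 list, 83.6% of the peaks within genes were centred on exons, compared with 4.74% in replicate 2 and 8.12% to 41.7% in the control lists, while exons were 7.73% of these genes. A replicate 1 peak was found at 93.6% of the genes whose mean was 1 FPKM or more and at 29.5% of the others. All 4 members with such a peak had a mean above 1 FPKM, and *Atp10a*, *Magel2*, *Mkrn3* and *Peg12*, without one, had a mean below it. The part of RNA level in these peaks was not tested.

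**Figure D5:**
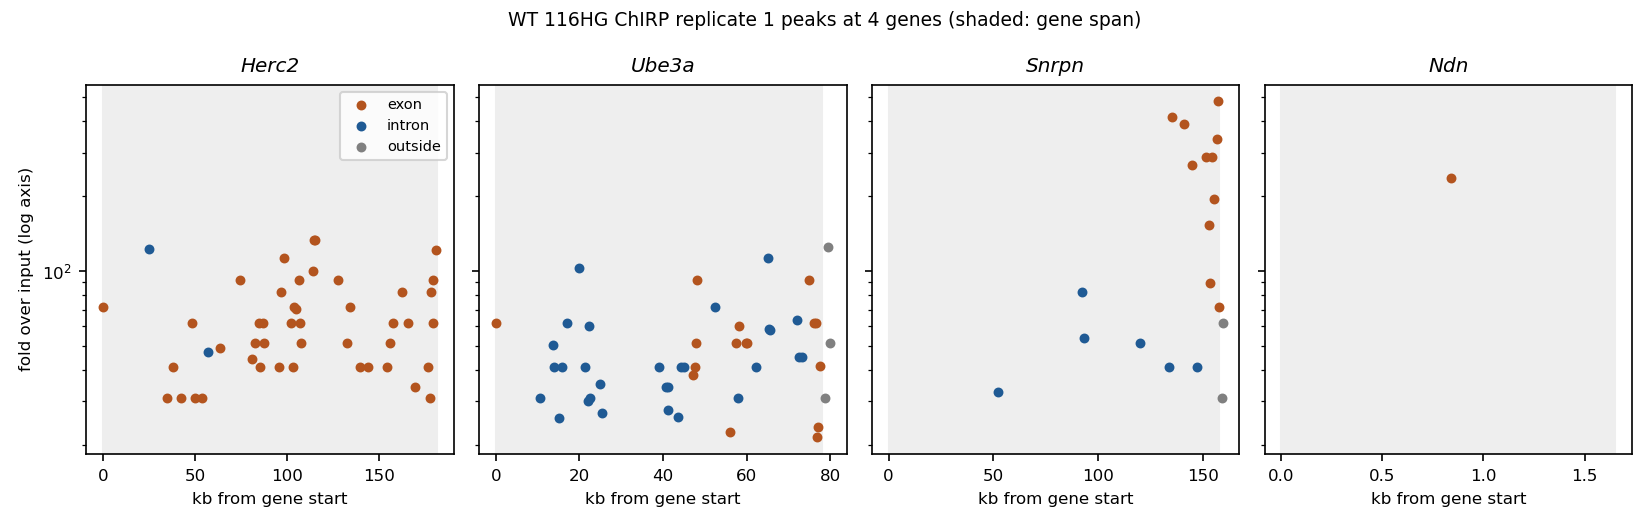
Each point is a WT *116HG* replicate 1 peak at 1 of 4 genes, placed by its distance in kb from the annotated gene start (the shaded band is the gene) and by its fold over input on a log axis. Nearly all *Herc2* peaks are exonic (45 of 47), most *Ube3a* peaks are intronic, and the *Snrpn* peaks with the highest fold are exonic and near the 3′ end of the gene, where its coding exons lie.

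The replicates met at few places among the members. In *Snrpn*, the replicate 2 peak from 67129360 to 67129488 lay in an intron, 420 bases from a replicate 1 peak, and did not overlap it. The *Ndn* peak was 7517 bases from the nearest replicate 2 peak. The *Peg12* peak of replicate 2, from 69609432 to 69609541, lay just upstream of the start and was 11796 bases from the nearest replicate 1 peak. At the start of *Ipw*, whose upstream sequence is printed above, peaks of both replicates covered the start site. Replicate 1 had a peak from 66934224 to 66934383 with a fold over input of 32.8 and replicate 2 one from 66934186 to 66934741. Within 2 kb of that start replicate 1 had 1 peak, replicate 2 had 8 and the 3 control lists had none, and within 10 kb these counts were 7 and 27, with 2 for NSC oligos in WT and none in the other 2 control lists. *Ipw* was thus the member where replicate 2 had the most peaks, within the array that the oligos were made against.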

How the data were processed

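For the RNA-seq, the authors aligned reads to mm9 with TopHat2 (2.0.5) and deposited 1 Cuffdiff (2.0.2) FPKM value per gene and group, so mice were pooled, depth and spread per mouse are not in the table, and no p-value or count model was used. Deposited columns of fold changes and q-values for *Snord116del* against WT were not used. For the ChIRP-seq, the authors called peaks with MACS (1.4.2) after Bowtie2 (2.0.0) alignment, kept peaks by false discovery rate and fold over input, and deposited that fold as a ratio, except for replicate 2, which has positions only. Tool versions are those of the submitters' processing notes. Input reads were not analysed here. FPKM + 1 was compared by the fold rule given in the text. A run on simulated group values with planted changes checked the calculation only, and says nothing of the spread between mice. Peaks were assigned to genes within 2 kb and called replicated where the other WT *116HG* list had one no more than 10 kb away, with GENCODE M1 genes matched by symbol (21853 of 23235). The designs assumed this unit. Genes named are all 10 members, list genes (1 is not reported here), and the 3 with the nearest pattern for *Ipw*, *Snrpn*, *Ube3a* and *Ndn*, with exceptions stated. The members and lists were chosen with earlier results of these data known. Alternatives were the pseudocount, the filter, the fold, 3 scalings, removal of the length trend (lowess, span 0.3) and the peak distances. Python 3.11.15 was used, with pandas 2.3.3 and numpy 2.4.6 for the tables, statsmodels 0.14.6 for the trend and matplotlib 3.10.9 for the plots.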

Additional observations from a re-analysis of the deposited data

Results flagged for a closer look

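*Snurf* changed in opposite directions at the 2 times: it was higher in *Snord116del* at Zt +6 (18.9 to 29.1 FPKM, log2 change 0.60) and lower at Zt +16 (9.68 to 0.255, -3.09), a difference of -3.68. This difference was not tested, since the table has 1 value per group, and *Snurf* at Zt +6 was -0.20 once all groups were scaled to 1 median. The sum of *Snurf* and *Snrpn* went from 84.2 to 134 FPKM at Zt +6 and from 99.7 to 150 at Zt +16.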

How the results depend on the processing

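No paired analysis was possible because the table has 1 value per group and no mouse numbers. At Zt +6 the number of members past the fold rule went from 6 to 2 once all groups were scaled to 1 median, 1 with the length trend removed and 3 at a fold of at least 2. Over all 10297 tested genes, 5073 higher and 785 lower became 1548 and 2516 with the same median and 2745 and 314 at a fold of 2. With the length trend removed they were 1282 and 1367 of 10165. At Zt +16 the number of members went from 3 to 1 with the length trend removed, when all genes went from 1959 higher and 21 lower to 95 and 79. Between the times it went in WT from 3 to 5 with the same median, 0 with the length trend removed and 1 at a fold of 2, and in *Snord116del* from 5 to 2 with the length trend removed and 3 at a fold of 2. In WT, 588 genes higher and 1057 lower became 1107 and 976, 352 and 676, and 48 and 239 under these settings, in that order. In *Snord116del*, 2571 and 4022 became 2527 and 2527 with the length trend removed and 1676 and 2692 at a fold of 2. *Ipw* and *Snurf* have no annotated length and drop out of the length setting, which leaves 4 members. The other counts stayed within 1.5 times. With the same median, *Snrpn* (-0.14) and *Snurf* (-0.20) at Zt +6 changed sign, and with the length trend removed *Herc2* did at Zt +6 (-0.32) and between the times in *Snord116del* (0.67). *Ndn* between the times in *Snord116del* was -0.12 with the same totals, and *Snrpn* there, not past the rule at 0.50, passed it in the other direction with the same totals (-0.59) and quantiles (-0.70). The cause was not tested. Of 200 changes of single members recomputed, 158 kept their direction and side of the rule or were never past it, 24 fell short of the rule, 11 newly passed it in the same direction, and 7 changed sign while past it in at least 1 setting. Counting those never past it, 14 changed sign. Replicate 2 peaks were at 1 member when they had to lie inside the gene. Members with a replicated peak went from 2 to 1 with replicates within 2 kb and 0 where they had to overlap, and were 2 to 4 with either replicate alone. Intervals are not available, because reads per mouse are not in the table, and group FPKM without a spread limits every difference given here.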
